A study of Homo sapiens with 6 samples.

Results

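Insulin-like growth factor (IGF) genes in cultured human podocytes were described from the table of the authors' comparison of levamisole with vehicle. The genes were chosen by symbol, and 9 of 10 had a row among the 20745 genes of the table: the binding protein genes IGFBP2, IGFBP3, IGFBP4, IGFBP5, IGFBP6 and IGFBP7, the receptor genes IGF1R and IGF2R, and the adaptor gene IRS2. The ligand gene IGF2 had no row under that symbol, so its level is not described. The study sequenced RNA from 3 vehicle cultures and 3 cultures given 1 µM levamisole for 24 h. All were AB 8/13 cells, a conditionally immortalized human podocyte line, which were differentiated at the restrictive temperature before treatment. The replicates came from different passages of this line, so they share its genotype. The labels place both groups in medium without serum, whereas the methods describe complete medium with serum for vehicle. Which medium was used was not resolved. The growth medium was supplemented with insulin, transferrin and selenite, which bears on a pathway that insulin also feeds.

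IGF1 and IGF2 are secreted peptides that act through IGF1R, a receptor tyrosine kinase, which passes the signal to the insulin receptor substrates IRS1 and IRS2 and on to phosphoinositide 3-kinase and AKT. Most IGF in body fluids is held by binding proteins, which carry the peptides, keep them from the receptor or release them near cells when cleaved by proteases. In the kidney, podocytes respond to insulin and IGF, and the binding proteins are made by several glomerular cell types.

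The value analysed was the base mean, which is the authors' mean of normalized read counts over the libraries of their fit, with 1 value per gene. The base mean pools the groups. It gives a pooled level but neither a spread between cultures nor a difference between levamisole and vehicle, and the number of libraries behind it is not given. The depth per culture is therefore unknown. No 2 genes shared a base mean (compared to 9 decimals), which also held for the 587 genes with a base mean under 0.35. Means of few whole reads over 6 libraries would be likely to repeat, so the authors' fit may have held libraries other than these cultures, and each level below is that of the fit and not known to be that of the 6 cultures alone. The median base mean was 21.8, 35.7% of genes were under 5, and 34.8% of the sum of all base means fell on the 22 mitochondrial genes. The lowest base mean was 0.194, whereas the methods state a minimum of 5 reads for each gene in each sample. The genes listed thus appear not to be limited to those passing that minimum.

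The labelled cell type was compared with its markers. Of 6 podocyte markers, 5 had a row and 4 had a base mean of at least 5. ACTN4, an actin crosslinker, had a base mean of 14320, and CD2AP, an adaptor of the slit diaphragm, had 929. SYNPO, an actin-associated podocyte protein, was at 22.8, and PODXL, a surface sialomucin, at 15.3. The defining slit diaphragm gene NPHS1 (nephrin) had no row under that symbol, and PTPRO, a podocyte surface phosphatase, was at 0.333. ACTN4 and CD2AP, the highest of the list, are also used by other cell types. Of 10 markers of endothelial, tubular, mesangial or stromal cells and leukocytes, 6 had a row, and 0 reached a base mean of 5. The highest of these was PDGFRB, at 4.14.

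IGFBP7 was by far the most abundant of the 9 genes. Its product binds IGF weakly, binds insulin and is found in basement membranes and vessel walls. The base mean of IGFBP7 was 18889, place 25 of the 20745 genes, and above 99.9% of them by base mean and by base mean per kb of exonic length. On the base mean scale it was 9.38 times the level of the next gene, IGFBP5, and per kb of exonic length it was 31.4 times. Reads of these libraries come mostly from transcript ends, whatever the length. Values per kb, here and below, therefore show how the order depends on length and are not a second measure of abundance. IGFBP7 alone made up 0.298% of all summed base means, and 0.456% when the mitochondrial genes were left out of the sum. Of the sum over the 6 binding protein genes it took 83.9% by base mean and 92.9% by base mean per kb.

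IGFBP5 and IGFBP3 followed. IGFBP5, a binding protein that also attaches to extracellular matrix, had a base mean of 2013 and place 305 in the table. IGFBP3, the main carrier of IGF in blood, had a base mean of 1297 and place 553. Their order depended on the measure of length. IGFBP5 was 1.55 times IGFBP3 by base mean and 1.10 times by base mean per kb of all exons (311 and 284), but IGFBP3 was the higher gene per kb of the canonical transcript, at 497 against 323. With no spread, these neighbours could not be told apart.

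IGFBP4, which mostly holds IGF away from its receptor, had a base mean of 303 and lay above 86.8% of genes by base mean and 93.7% per kb. IGFBP6, which prefers IGF2 over IGF1, had a base mean of 20.7 and lay close to the median gene by base mean, above 49.4% of genes, and above 67.0% of genes per kb. By base mean it lay above 30.97% of protein-coding genes, and above 21.3% of all genes that reached a base mean of 5. IGFBP2, a binding protein with an integrin-binding motif, was at 1.94 and lay above 26.1% of genes by base mean, 11.8% of protein-coding genes by base mean and 13.1% of genes per kb. It was the single gene of the 9 with a base mean under 5. IGFBP7 was 9736 times IGFBP2 by base mean and 23921 times per kb of all exons. IGFBP6 was 10.6 times IGFBP2 by base mean and 37.5 times per kb of all exons. These per kb ratios depend on the length used, since IGFBP2 has 4742 exonic bases but 1414 in its canonical transcript. Per kb of the canonical transcript, IGFBP7, IGFBP6 and IGFBP2 were at 13236.5, 21.8 and 1.37. The size of every ratio to IGFBP2 is uncertain, because its base mean of 1.94 is low and the number of reads behind it is not known. The binding proteins held both ends of the order on each scale.

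**Figure D1:**
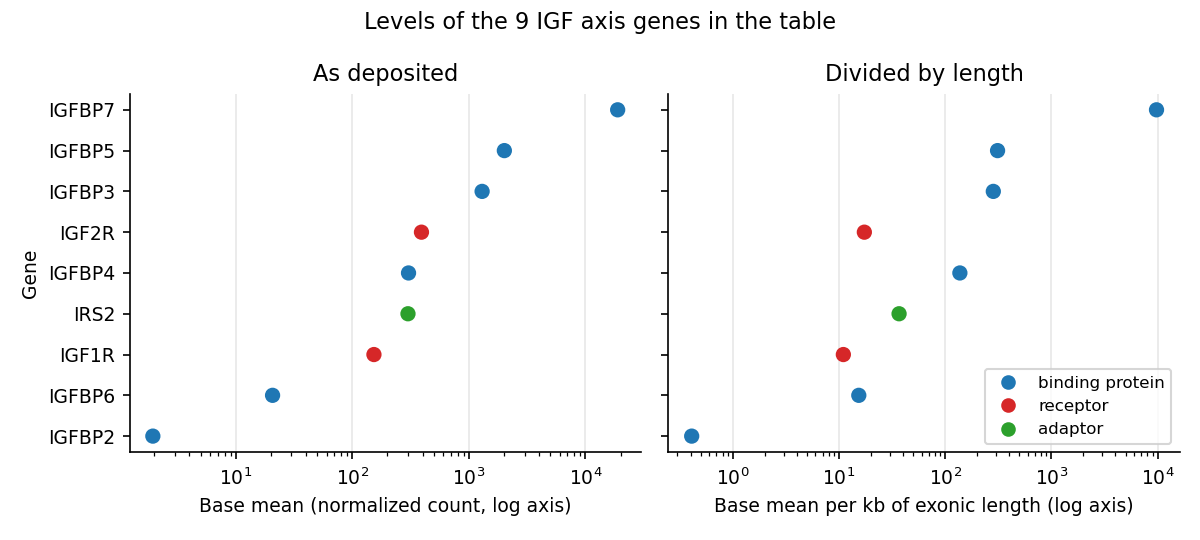
Base mean (left, normalized counts) and base mean per kb of exonic length (right) of the 9 genes, both on log axes, with 1 point per gene as the authors' pooled value and no error bars. IGFBP7 is highest and IGFBP2 lowest in both panels, at 18889 and 1.94 by base mean, while IGF2R and IGF1R move down when divided by length.

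The receptors were present at intermediate levels. IGF1R, the signalling receptor, had a base mean of 153 and lay above 77.5% of genes by base mean and 61.1% per kb. IGF2R, which carries IGF2 and mannose 6-phosphate tagged enzymes to lysosomes, had a base mean of 391 and lay above 89.8% of genes by base mean and 69.0% per kb. IGF2R was 2.56 times IGF1R by base mean and 1.58 times per kb of all exons. Both genes have long transcripts. All exons hold 22613 bases for IGF2R and 13941 for IGF1R, which gave base means per kb of 17.3 and 10.98. The canonical transcripts hold 14061 and 12235 bases, which gave 27.8 and 12.5, so the ratio per kb depends on the length used. IRS2, the adaptor, had a base mean of 299.9 and lay above 86.7% of genes by base mean and 80.5% per kb. Its base mean was nearly that of IGFBP4, with a ratio of IGFBP4 to IRS2 of 1.01 by base mean and 3.74 per kb.

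Read by the whole table, 7 of the 9 genes were above the median gene by base mean and 8 of the 9 per kb, and 8 of the 9 had a base mean of at least 5, against 64.3% of all genes. The median base mean of the 9 genes was 303, against 21.8 over all genes, and per kb it was 36.8 against 5.53. All 9 genes are protein-coding, whereas the background of all genes also holds non-coding genes, and protein-coding genes lay higher. IGFBP1, at 3.74, lay above 33.0% of all genes but 16.1% of protein-coding genes. HTRA1, at 13.6, lay above 45.2% and 26.3%. A larger share of protein-coding genes than 64.3% thus reached 5, which accounts for part of the difference. The genes were listed by name and not drawn at random, and no test was run on these counts.

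**Figure D2:**
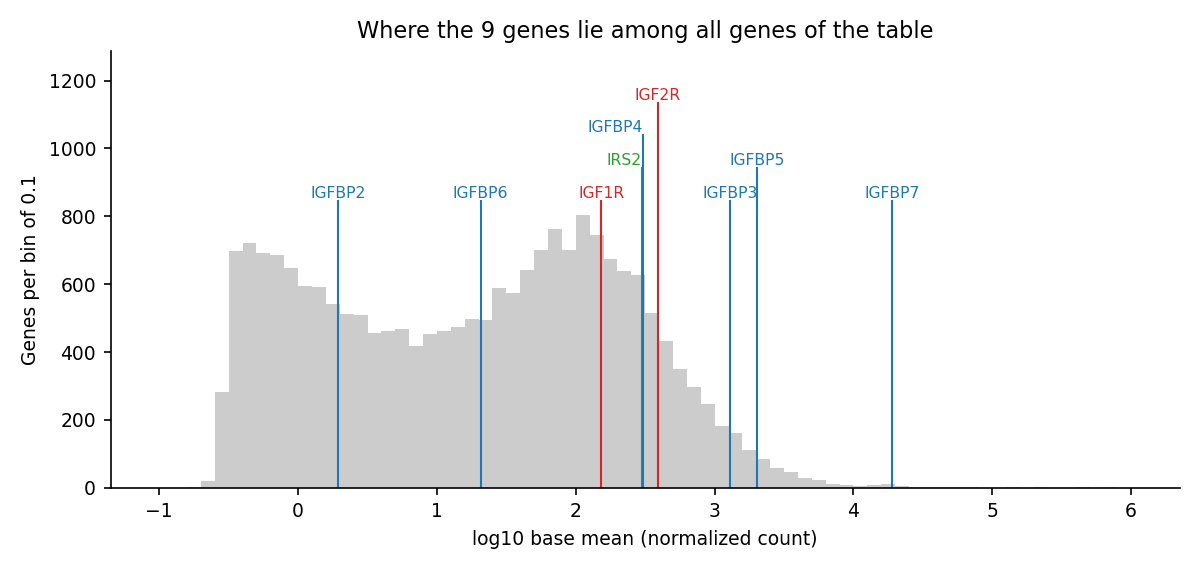
Number of genes per bin of 0.1 in log10 base mean (grey, all 20745 genes), with the 9 genes as vertical lines, blue for binding proteins, red for receptors and green for IRS2. IGFBP2 lies in the low mode, IGFBP6 near the median of 21.8 and IGFBP7 in the far upper tail.

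The other genes of the pathway came from a list of 21 genes, of which 16 had a row and 13 had a base mean of at least 5. Among ligands, IGF1 was at 0.332, above 2.09% of genes by base mean, and INS had no row. The liver-type binding protein IGFBP1 was at 3.74 and IGFBPL1, a related secreted protein, at 2.12, and IGFALS had no row. IGFBP3 was 347 times IGFBP1 by base mean and 125 times per kb of all exons. Per kb of the canonical transcript, IGFBP3 was at 497 and IGFBP1 at 2.47. The size of this ratio is uncertain, because the base mean of IGFBP1 is under 5.

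Of the genes that govern cleavage of the binding proteins, 4 of 5 had a row. PAPPA, the protease that cleaves IGFBP4 and IGFBP5, had a base mean of 769 and lay above 94.95% of genes by base mean and 87.9% per kb. STC2, a glycoprotein that inhibits PAPPA, was at 573, and its relative STC1 was at 62.8. HTRA1, a serine protease that cleaves IGFBP5, was at 13.6. PAPPA was thus listed together with its substrates, IGFBP4 at 303 and IGFBP5 at 2013, and with its inhibitors.

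The insulin receptor gene INSR had a base mean of 16.4 and lay above 47.0% of genes by base mean, 28.4% of protein-coding genes and 17.6% of genes that reached a base mean of 5, and above 30.5% of genes per kb. IGF1R was 9.32 times INSR by base mean and 7.24 times per kb. IRS1, at 290, was close to IRS2 on both scales, with IRS2 at 1.03 times IRS1 by base mean and 1.27 times per kb. Of the other adaptors, GRB2 was at 724, SHC1 at 720, GRB10, which restrains signalling of these receptors, at 373, and GRB14 at 125. The genes of the IGF2 mRNA-binding proteins, IGF2BP3, IGF2BP2 and IGF2BP1, had base means of 237, 186 and 107.

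**Figure D3:**
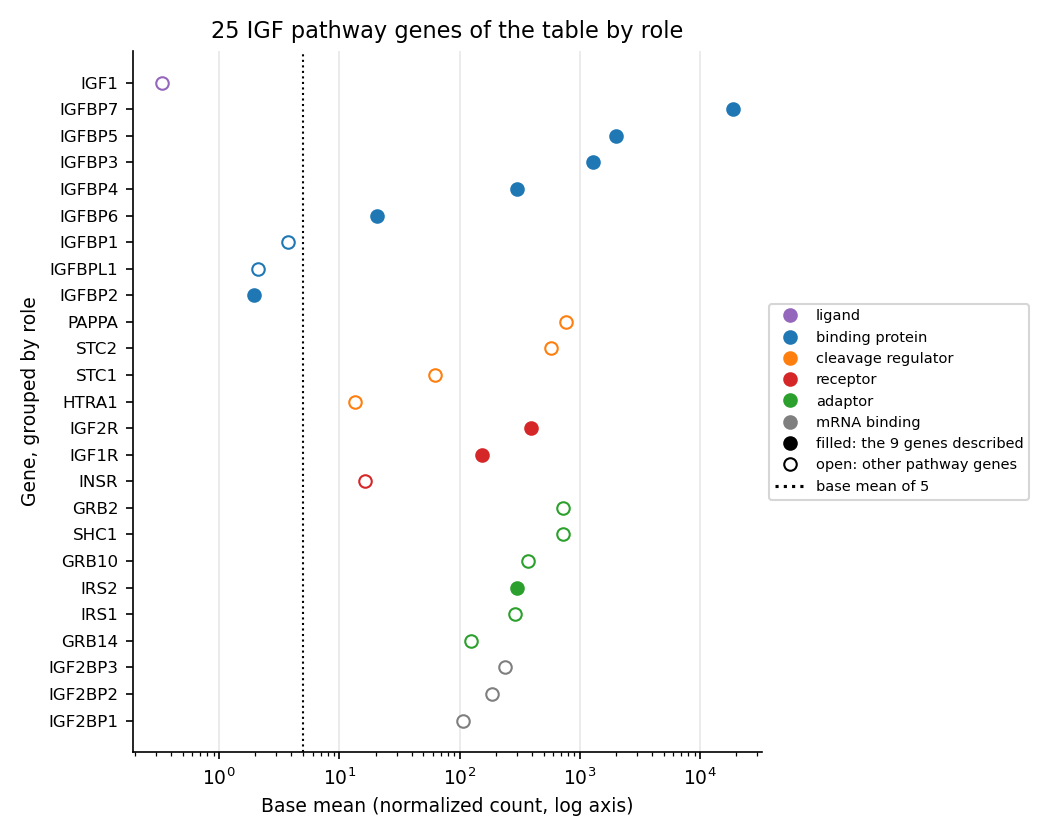
Base mean (normalized counts, log axis) of the 25 pathway genes that had a row, grouped by role, with filled points for the 9 genes described and open points for the others, and a dotted line at a base mean of 5. All adaptors and mRNA-binding proteins shown lie above 100, whereas the binding proteins run from 1.94 to 18889.

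The 9 genes lie on 8 chromosomes of GRCh38. IGFBP2 (ENSG00000115457, chromosome 2, 216632828 to 216664436, plus strand) and IGFBP5 (ENSG00000115461, chromosome 2, 216672105 to 216695549, minus strand) are tail-to-tail neighbours with 7668 bases between them and 0 annotated genes in the gap. These neighbours were far apart in level, with IGFBP5 at 1038 times IGFBP2 by base mean and 761 times per kb of all exons. Per kb of the canonical transcript, IGFBP5 was at 323 and IGFBP2 at 1.37. IGFBP3 (ENSG00000146674, chromosome 7, 45912245 to 45921874, minus strand) has the same arrangement with IGFBP1, 18584 bases away, and there too 1 neighbour was high and the other was under 5.

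IGFBP7 (ENSG00000163453) lies on chromosome 4 from 57030773 to 57110385 on the minus strand, with 5 exons in its canonical transcript. IGFBP4 (ENSG00000141753) lies on chromosome 17 from 40443450 to 40457725, and IGFBP6 (ENSG00000167779) on chromosome 12 from 53097436 to 53102345, both on the plus strand with 4 exons. IGF1R (ENSG00000140443) lies on chromosome 15 from 98648539 to 98964530 with 21 exons, and IGF2R (ENSG00000197081) on chromosome 6 from 159969082 to 160113507 with 48 exons, both on the plus strand. IRS2 (ENSG00000185950) lies on chromosome 13 from 109752695 to 109786583 on the minus strand, with 2 exons.

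The libraries carry reads mostly from the 3′ end of transcripts, so the last 500 exonic bases of each canonical transcript were examined. For all 9 genes, 0% of these bases overlapped same-strand exons of a different gene. For IGFBP7, 52.0% overlapped exons of POLR2B on the opposite strand, a gene of RNA polymerase II that had a base mean of 219. The antisense gene IGFBP7-AS1 was at 0.924. The authors counted with the default settings of HTSeq-count, which assign reads by strand.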

How the data were processed

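Libraries were made by a version of CEL-seq, where cDNA synthesis starts at the poly(A) tail from primers that carry the sample barcode. Per the labels and methods, the authors trimmed reads with Trim Galore 0.4.5, mapped them to GRCh38 with STAR 2.7.5a, counted them with HTSeq 0.11.0 and fitted DESeq2 1.22.0 in R 3.5.3. The methods also describe a mapping with BWA and scaling to the total of reads. The authors deposited 1 table, whose base mean (a signal, the mean of normalized counts) was the single column used. Its other 5 columns hold the authors' own comparison (log2 fold change, standard error, statistic, p-value and adjusted p-value) and were not used.

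No values per culture were analysed, so levamisole was not compared with vehicle, and the planned count test was not run. Genes were matched by symbol. Ranks, percentiles (the share of genes with a lower base mean), shares and ratios were computed with Python 3.11.15, NumPy 2.4.6 and pandas 2.3.3, and figures drawn with matplotlib 3.10.9. The percentile step was tested on simulated data. Base means were also divided by the exonic length of the gene (union of exons) or of the canonical transcript in GENCODE 44, also on GRCh38, where 20599 of 20745 identifiers had a position. A read marks the end of a transcript whatever its length, so the base mean is the main scale. The values per kb show how the order depends on dividing by length, and are not a second measure of abundance. All genes chosen were named, as were those of a pathway list and a marker list, some of whose genes are not reported here. The genes and lists were chosen with earlier results of these data known. Alternatives were the length scale, the background of the percentiles, mitochondrial genes left out, and base mean minimums of 10 and 50.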

Additional observations from a re-analysis of the deposited data

How the results depend on the processing

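No paired analysis was possible because the base mean holds no values per culture, and for the same reason other normalizations and left-out replicates were not run. Of the 9 genes, 4 kept their place in the order by base mean when divided by all exons, and 2 when divided by the canonical transcript, an alternative chosen after seeing the data. IGFBP7 was first and IGFBP2 last on all 3 scales. The 9 genes together took 0.368% of the summed base means, 0.565% without mitochondrial genes, and 0.573% when the mitochondrial pseudogene MTATP6P1 was left out as well, which was also chosen after seeing the data. The number of the 9 genes above the median was 7 against all genes, against those at a base mean of 5 or more and against protein-coding genes. At minimums of 10 and 50, 8 and 7 of the 9 genes and 13 and 11 of the other pathway genes were at or above the minimum. For genes with a base mean near 1 or 2, such as IGFBP2, the number of reads is not known, and their levels are the least certain.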
